A study of Dendrobium catenatum with 16 samples.

Results

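The alkaloid-related enzymes of the orchid Dendrobium catenatum were taken as every gene whose description in the deposited table names norcoclaurine, reticuline, berberine, strictosidine, tropinone or another of 11 alkaloid words, with cytochrome P450 genes left out. The rule found 44 of the 28537 features of the second experiment's table, and all 44 were also among the 23063 features of the first. The descriptions put them in 5 classes: 14 norcoclaurine synthases, 2 norcoclaurine 6-O-methyltransferases, 10 berberine bridge enzymes or reticuline oxidases, 11 strictosidine synthase-like proteins and 7 tropinone reductases. These names rest on sequence similarity. No enzyme activity and no alkaloid was measured.

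Poly(A) RNA was sequenced from young leaves, stems and shoots of plantlets grown from seed on agar medium. In the first experiment, 2-month-old plantlets were kept for 3 weeks on medium with 0.1 mg/L NAA plus 1.0 mg/L 6-BA, with 1.0 mg/L 6-BA, with 0.1 mg/L NAA or with distilled water, and each treatment had 2 biological replicates. In the second experiment, 9-month-old plantlets were kept for 2 or 4 weeks without 6-BA or with it at 0.5, at 1.0 or at 2.0 mg/L, and each of these 8 conditions had 1 library. The auxin analogue NAA (naphthaleneacetic acid) promotes rooting in tissue culture, and the cytokinin 6-BA (benzyladenine) promotes shoot growth. The labels name no mutant or transgenic plants, and the sources used here do not say how many plantlets went into each library. The series' design text gives as its purpose to follow genes for medicinal components under these hormones.

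Norcoclaurine synthase condenses dopamine with an aromatic aldehyde to give norcoclaurine, the first benzylisoquinoline, and the 6-O-methyltransferase then adds a methyl group from S-adenosylmethionine to give coclaurine. Later on the same route, berberine bridge enzyme (reticuline oxidase) closes a ring of reticuline to form scoulerine. Strictosidine synthase joins tryptamine to the iridoid secologanin, which opens the route to monoterpene indole alkaloids, and tropinone reductases act in the tropane alkaloid route of the nightshade family. These reactions were worked out in poppies, Coptis, periwinkle and nightshades. The best-known Dendrobium alkaloids, such as dendrobine, are built on a sesquiterpene skeleton, and many plants without these alkaloids carry relatives of all of these enzymes that do other work.

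Library totals ran between 34.3 and 74.5 in the first experiment, and between 15.1 and 16.3 in the second, in units of 1000000 counts. In the first experiment they were 52.9 to 74.5 with 6-BA and 34.3 to 40.1 without it, so raw counts there also differ by depth. Genes for chlorophyll a-b binding proteins and the small subunit of Rubisco, 19 markers of green tissue, had summed levels of 27300 to 33710 CPM (counts per 1000000 of the library total) over the first 8 libraries and of 14550 to 35870 CPM over the later 8, while 47 root markers summed to 956.1 to 1428 CPM over all 16 libraries. Cytokinin dehydrogenase 6 (LOC110105324), a cytokinin-degrading enzyme whose gene responds to cytokinin, had 9.58 and 11.3 FPKM with NAA plus 6-BA and 13.1 and 11.2 FPKM with 6-BA, against 0.354 and 0.217 FPKM with NAA and 0.378 and 0.214 FPKM with water. In the second experiment it was at 0.108 FPKM without 6-BA and at 1.25, 1.03 and 0.622 FPKM in order of rising dose after 2 weeks, and at 0.163 FPKM without 6-BA and 0.479, 6.46 and 2.03 FPKM after 4 weeks. Every library with 6-BA was therefore above the library without it of the same experiment and week. This gene was chosen as a check of the labels after its values were seen.

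Levels are given in FPKM, fragments per kilobase of transcript and per 1000000 fragments of the library, which can be set side by side between genes. The 44 genes had a median of 10.6 FPKM, each averaged over the 8 libraries of the first experiment. Tropinone reductases had the highest class median, at 34.93 FPKM, ahead of strictosidine synthase-like genes at 20.01 FPKM and norcoclaurine synthases at 10.88 FPKM. The 6-O-methyltransferases had a class median of 6.448 FPKM and the berberine bridge enzymes one of 2.342 FPKM. The class medians were not tested against each other, and the levels of the tropinone reductases overlapped those of each of the other classes.

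**Figure D1:**
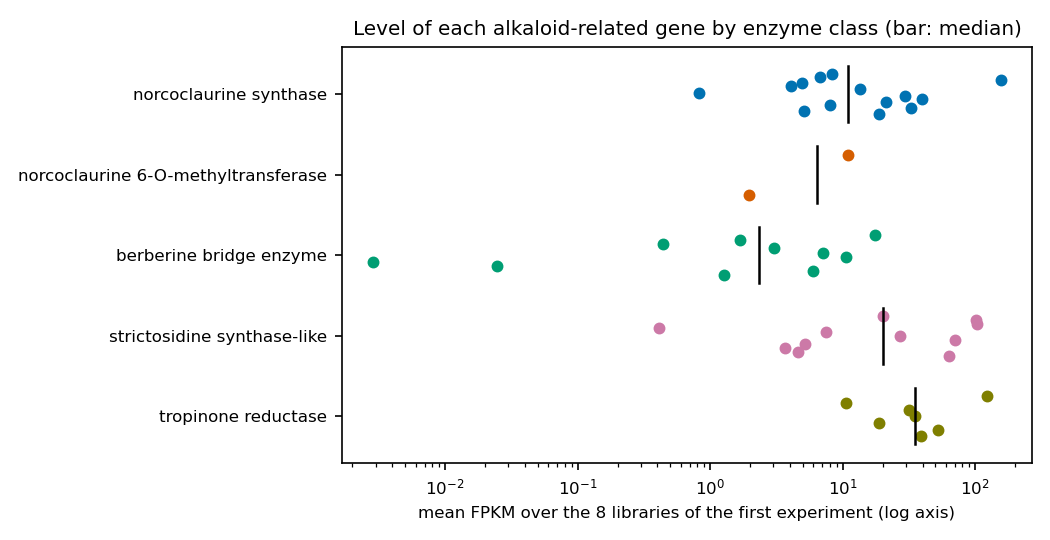
Mean FPKM over the 8 libraries of the first experiment for each of the 44 genes (points, log axis), by enzyme class, with the class median as a bar. Single genes of the norcoclaurine synthase, strictosidine synthase-like and tropinone reductase classes reach above 100 FPKM, while 2 berberine bridge enzyme genes lie below 0.1 FPKM.

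The highest of all was LOC110104746, a norcoclaurine synthase-like gene at 155.3 FPKM. It was the only one of the 14 norcoclaurine synthases with a Bet v I domain, the fold of the norcoclaurine synthases of poppy and Thalictrum. In 11 others the deposited annotation lists the domain of iron- and oxoglutarate-dependent oxygenases, an enzyme superfamily that also contains a Coptis protein described as a norcoclaurine synthase. The next in that class, LOC110092338 (39.96 FPKM), belongs to these oxygenases. Among the other classes the top genes were the tropinone reductase homolog LOC110111062 at 122.0 FPKM, the strictosidine synthase-like 3 gene LOC110106759 at 103.5 FPKM and the strictosidine synthase-like 4 gene LOC110110422 at 100.4 FPKM. The best protein match of LOC110110422 was an adipocyte plasma membrane-associated protein, and those of the rest of its class were strictosidine synthase-like proteins. A strictosidine synthase domain was listed for it, and for 9 of 11 genes of that class in all. The second tropinone reductase, LOC110104710, averaged 52.54 FPKM. Of the berberine bridge enzymes, all 10 with the berberine-type domain, the highest were the berberine bridge enzyme-like 22 gene LOC110093998 at 17.55 FPKM and the berberine bridge enzyme-like 23 gene LOC110114657 at 10.65 FPKM.

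At the bottom, LOC110106344 (berberine bridge enzyme-like 18) had 2 counts in all 8 libraries of the first experiment together and LOC110110948 (berberine bridge enzyme-like 23) had 5. Both failed the filter on low counts, so 42 of the 44 genes were tested there. In the second experiment 39 of 44 were tested. The same pair failed again, along with LOC110098946, LOC110095719 and LOC110098090, which had 78, 3 and 5 counts over its 8 libraries.

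Many of the genes are neighbours. Joining genes of a class that lie within 100 kb of each other on a scaffold gave 6 arrays with 17 of the 44 genes, 12 of them norcoclaurine synthases and 5 berberine bridge enzymes. One array holds LOC110101964, LOC110101972, LOC110101979 and LOC110102179 within 53.8 kb, and another holds LOC114578333, LOC110110104, LOC110110105 and LOC110110103 within 28.6 kb. LOC114578333 and LOC110110104 overlap by 242 bases on the same strand. The sources used here do not say how reads were divided among such close copies, so the values of array members are uncertain to that extent.

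The question of the first experiment was how 6-BA and NAA, alone and together, changed these genes. In plantlets given 6-BA alone, 3 of the 42 tested genes rose and 2 fell against water (edgeR quasi-likelihood test, Benjamini-Hochberg adjusted p under 0.05). Over all 19420 genes tested the shares were 3.11% higher and 4.2% lower, 7.31% in all. The largest change in size among the 42 was that of a 6-O-methyltransferase gene. For NAA plus 6-BA against NAA alone, 3 rose and 3 fell against 1.94% higher and 3.64% lower over all genes (5.58%). The group means of this contrast come from none of the libraries of the first. Its calls still rest on those libraries, since all 4 groups share one estimate of the spread. NAA plus 6-BA against water gave 3 higher and 2 lower against 3.01% and 4.06% (7.08%). It shares its water libraries with 6-BA against water. DESeq2 called 6 of 42 for 6-BA against water (10.5% of all genes), 10 for NAA plus 6-BA against NAA (9.01%) and 8 for NAA plus 6-BA against water (10.3%). A gene described below as passing no edgeR test passed none of the contrasts of the first experiment by edgeR over all 8 libraries.

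All 4 libraries with 6-BA were also set against all 4 without it in an additive fit with NAA as a term. In this fit 4 genes rose and 7 fell of 42, against 5.92% higher and 7.46% lower over 19303 genes (13.4%). The median log2 fold change of the 42 genes was -0.01, and 20 of 42 were positive. DESeq2 called 13 of 42 in it (5 higher, 8 lower), against 18.0% of all genes. For all genes the edgeR median was 0.00, with 9820 positive of 19303, close to the values of the list. Of all genes called in this fit, 1142 rose and 1440 fell with TMM scaling, and 1443 rose and 1161 fell when libraries were scaled by their totals. For 6-BA added to NAA the split was 376 against 707 with TMM and 527 against 624 with totals. None of the 27 calls of these enzymes reversed under any scaling or other setting tried. In bulk tissue, fewer cells that express a gene and less RNA per cell cannot be told apart.

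**Figure D2:**
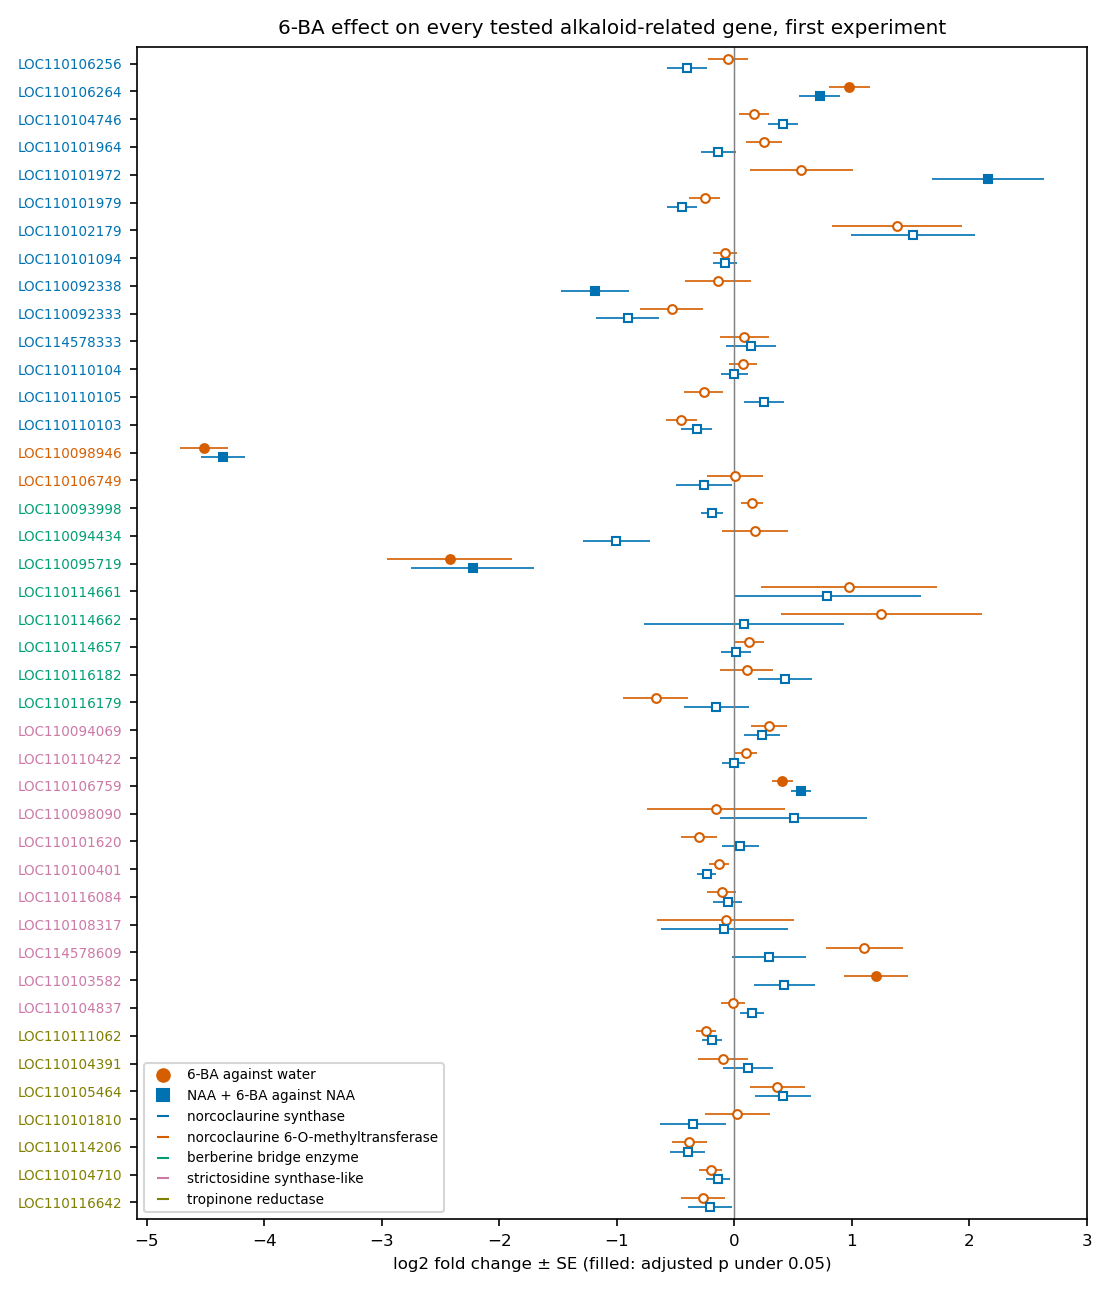
Log2 fold change with its SE for the 42 tested genes, for 6-BA against water (circles) and NAA plus 6-BA against NAA (squares). The group means behind them share no library, but the SEs and calls rest on one spread estimated over all 4 groups. Filled symbols passed an adjusted p of 0.05. LOC110098946 stands alone near -4.5 in both contrasts, and most other genes lie within 1 of zero.

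The gene that changed most was LOC110098946, a (RS)-norcoclaurine 6-O-methyltransferase-like gene (scaffold NW_021318711.1, bases 2275199 to 2276260, minus strand, as in the deposited table, whose genome build is not named) with an O-methyltransferase domain and a dimerisation domain. It had 1.295 and 1.188 FPKM with NAA plus 6-BA, 0.774 and 0.736 FPKM with 6-BA, 26.4 and 23.0 FPKM with NAA, and 14.7 and 19.5 FPKM with water. The counts behind these were 94 and 67, 41 and 38, 958 and 768, and 563 and 763 in the same order. The highest library with 6-BA lay more than 10-fold below the lowest library without it. The 4 libraries with 6-BA averaged 0.998 ± 0.285 FPKM and the 4 without it 20.9 ± 5.01 FPKM (SD, n = 4 each).

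Its log2 fold change was -4.52 for 6-BA against water (SE 0.20, edgeR adjusted p = 1.2e-05) and -4.36 for NAA plus 6-BA against NAA (SE 0.19, adjusted p = 9.38e-06). Against water, NAA plus 6-BA gave -3.80 (SE 0.19, adjusted p = 1.5e-05). In the additive fit it was -4.43 (SE 0.13, adjusted p = 4.02e-07). These calls held with each library left out in turn, where the additive value stayed between -4.49 and -4.32. With NAA alone the gene was at 24.7 ± 2.43 FPKM, against 17.1 ± 3.44 FPKM with water (SD, n = 2 each), and the log2 fold change of 0.56 (SE 0.16) did not pass (edgeR adjusted p = 0.143). Its counterpart LOC110106749, the other 6-O-methyltransferase, had 2.08 and 1.55 FPKM with NAA plus 6-BA, 1.86 and 2.09 FPKM with 6-BA, 1.92 and 2.28 FPKM with NAA and 2.10 and 1.78 FPKM with water. These groups overlap, and the gene passed no edgeR test.

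**Figure D3:**
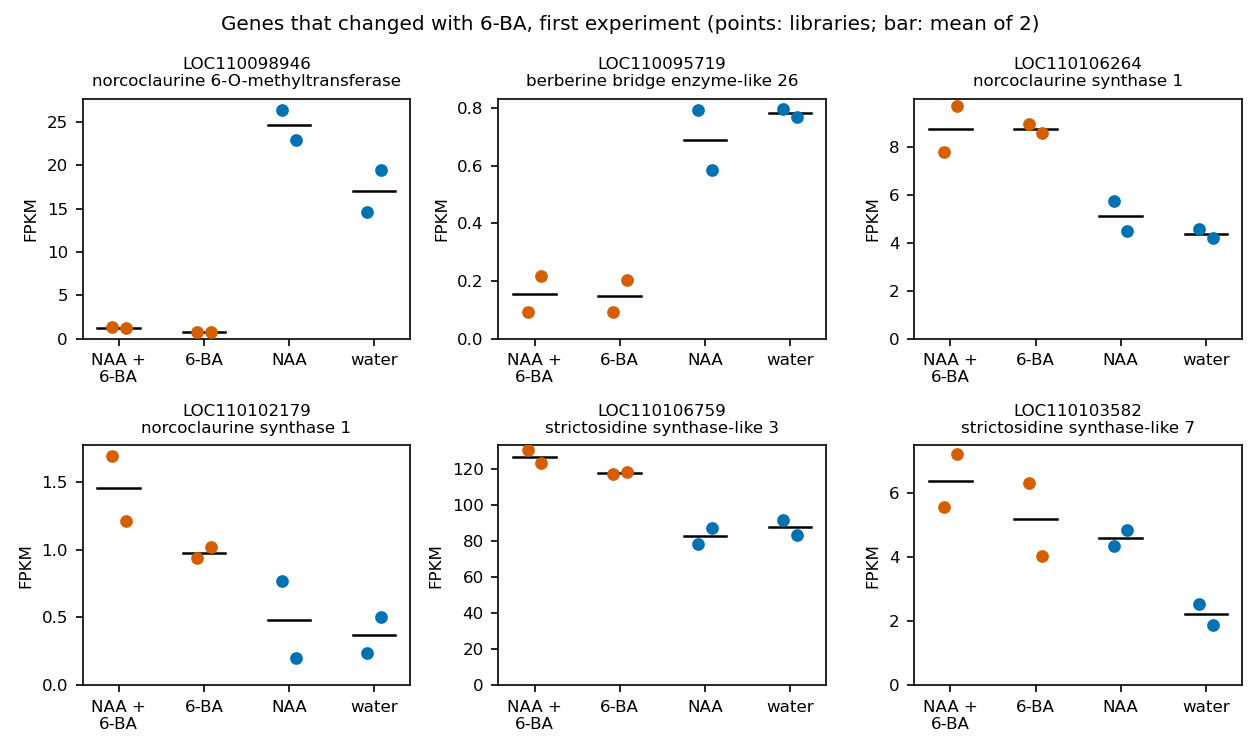
FPKM per library (points) and group mean (bars, n = 2) of 6 genes with a call, in NAA plus 6-BA, 6-BA, NAA and water, each on its own linear axis from 0. For LOC110098946, LOC110095719, LOC110106264, LOC110102179 and LOC110106759 the libraries with 6-BA do not overlap those without it.

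The second gene to fall was LOC110095719, a berberine bridge enzyme-like 26 gene (scaffold NW_021319555.1, bases 240756 to 242555, plus strand). Relatives of this family oxidise sugars of the cell wall and lignin building blocks in Arabidopsis. It was weakly expressed, at 0.0927 and 0.217 FPKM with NAA plus 6-BA and 0.0924 and 0.202 FPKM with 6-BA, against 0.793 and 0.586 FPKM with NAA and 0.797 and 0.767 FPKM with water. Libraries with 6-BA held 8 to 20 counts of it and libraries without 6-BA 32 to 50. The additive log2 fold change was -2.32 (SE 0.36, edgeR adjusted p = 0.00278), and it passed without any 1 library as well, with adjusted p up to 0.0124. On the log2(FPKM + 1) scale the value was smaller in size, at -0.59, since that scale understates changes of low genes. In the contrasts of 2 against 2 libraries the fall was -2.42 for 6-BA against water (adjusted p = 0.0239), -2.23 for NAA plus 6-BA against NAA (adjusted p = 0.0394) and -2.38 for NAA plus 6-BA against water (adjusted p = 0.0241). The first of these calls was lost without any 1 of the water or 6-BA libraries (adjusted p up to 0.149). The second was lost without any 1 of the NAA plus 6-BA, NAA or water libraries (up to 0.242) and missed the threshold in limma on log2(FPKM + 0.1) (adjusted p = 0.0549), and the third was lost without either water library or NAA plus 6-BA replicate 1 (up to 0.154). The other 7 tested berberine bridge enzymes passed no edgeR test. By DESeq2 the reticuline oxidase-like gene LOC110094434 passed for NAA plus 6-BA against NAA, with a log2 fold change of -1.01 (adjusted p = 0.0159).

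Among the norcoclaurine synthases, LOC110106264 (scaffold NW_021318513.1, bases 735267 to 736899, plus strand), one of the oxygenase type, rose. It had 7.76 and 9.71 FPKM with NAA plus 6-BA and 8.93 and 8.59 FPKM with 6-BA, against 5.71 and 4.49 FPKM with NAA and 4.57 and 4.18 FPKM with water. The lowest library with 6-BA was above the highest without it. Its additive log2 fold change was 0.85 (SE 0.13, edgeR adjusted p = 0.00232), and this call held without any 1 library, with values of 0.81 to 0.96. For 6-BA against water it was 0.98 (SE 0.18, adjusted p = 0.00976), and for NAA plus 6-BA against NAA 0.73 (SE 0.18, adjusted p = 0.0432). The first of these was lost without water replicate 2 or either library of 6-BA alone (adjusted p up to 0.0723), and the second without any library but NAA replicate 1 (up to 0.186). Its neighbour LOC110106256, in an array of 19.2 kb, stayed between 6.38 and 9.51 FPKM over all 8 libraries and passed no edgeR test.

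LOC110102179, an oxygenase-type gene in the array of 4, had 1.69 and 1.21 FPKM with NAA plus 6-BA and 0.934 and 1.02 FPKM with 6-BA, against 0.765 and 0.202 FPKM with NAA and 0.234 and 0.499 FPKM with water. The groups did not overlap, and the additive log2 fold change was 1.46 (SE 0.37, edgeR adjusted p = 0.031). This call was lost without water replicate 1, NAA replicate 2, either 6-BA library or NAA plus 6-BA replicate 1, with adjusted p up to 0.0965. For NAA plus 6-BA against water it passed by DESeq2 at 1.96 (adjusted p = 0.0123), and not by edgeR with the filter on low counts (adjusted p = 0.0613). Without that filter edgeR called it at 1.97 (adjusted p = 0.0495). Of the limma fits only that on log2(FPKM + 1) called it (0.84, adjusted p = 0.0431). In the same array, LOC110101972 had 7.19 and 5.35 FPKM with NAA plus 6-BA, against 0.799 and 1.93 FPKM with NAA. That difference passed at a log2 fold change of 2.16 (SE 0.48, adjusted p = 0.0305) and was lost without NAA replicate 1 or either NAA plus 6-BA library, with adjusted p up to 0.178. With 6-BA alone it had 3.24 and 7.001 FPKM, against 2.38 and 4.42 FPKM with water, which overlap. The interaction, which asks whether the 6-BA change differed with and without NAA, was 1.59 (SE 0.65) with an adjusted p of 0.539 by edgeR.

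In the other direction, LOC110101979 of the same array fell by 0.35 on the log2 scale in the additive fit (SE 0.09, edgeR adjusted p = 0.034). It had 12.2 and 11.0 FPKM with NAA plus 6-BA and 12.5 and 12.2 FPKM with 6-BA, against 16.9 and 13.7 FPKM with NAA and 13.8 and 15.3 FPKM with water. Its best protein match was SRG1, a protein named for its link to senescence in Arabidopsis, and the annotation lists no domain for it. One array thus held 2 genes that rose in some contrast, LOC110101972 and LOC110102179, 1 that fell, LOC110101979, and LOC110101964, which stayed between 4.30 and 5.63 FPKM and passed no edgeR test. LOC110110103 fell by 0.39 (SE 0.09, adjusted p = 0.0234), with 15.9 and 16.5 FPKM with NAA plus 6-BA and 18.1 and 15.4 FPKM with 6-BA, against 20.2 and 19.0 FPKM with NAA and 24.5 and 20.8 FPKM with water. Both falls depended on single libraries. LOC110101979 missed the threshold in 6 of 8 fits that each left out 1 library, all but those without water replicate 1 or NAA replicate 2 (adjusted p up to 0.099), and in limma on log2(FPKM + 1) (adjusted p = 0.0525). LOC110110103 missed it without water replicate 1, 6-BA replicate 2 or NAA plus 6-BA replicate 1 (adjusted p up to 0.0697). DESeq2 also called LOC110101979 for NAA plus 6-BA against NAA (-0.45, adjusted p = 0.0393), and LOC110110103 against water with 6-BA (-0.45, adjusted p = 0.041) and with NAA plus 6-BA (-0.51, adjusted p = 0.0154).

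The neighbours LOC110092338 and LOC110092333, 46.6 kb across, moved alike between libraries. LOC110092338 had 18.8 and 31.1 FPKM with NAA plus 6-BA, 41.9 and 34.7 FPKM with 6-BA, 71.5 and 38.5 FPKM with NAA and 38.6 and 44.5 FPKM with water. LOC110092333 had 13.5 and 17.1, 18.8 and 15.2, 36.7 and 18.7, and 21.8 and 26.6 FPKM in the same order. NAA replicate 1 was the highest library for both genes. By edgeR, LOC110092338 fell for NAA plus 6-BA against NAA (log2 fold change -1.19, SE 0.29, adjusted p = 0.0437), and LOC110092333 fell in the additive fit (-0.72, SE 0.20, adjusted p = 0.0393). DESeq2 also called LOC110092333 for NAA plus 6-BA against NAA (-0.91, adjusted p = 0.0039) and against water (-0.69, adjusted p = 0.0458). Without NAA replicate 1 the first call was lost. It was also lost without either water library, either 6-BA library or NAA plus 6-BA replicate 1, with adjusted p up to 0.268. The second was lost without water replicate 2, 6-BA replicate 2 or either NAA plus 6-BA library, with adjusted p up to 0.122. Both limma fits missed the threshold for the first call (adjusted p = 0.078 and 0.0766) and for the second (0.0647 and 0.0626). LOC110092338 also overlaps an annotated U11 spliceosomal RNA gene by 126 bases on its strand.

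The other norcoclaurine synthases passed no edgeR test. The Bet v I gene LOC110104746 had 197.3 and 170.2 FPKM with NAA plus 6-BA and 179.1 and 144.7 FPKM with 6-BA, against 122.0 and 144.8 FPKM with NAA and 151.9 and 132.2 FPKM with water. One 6-BA library lay within the range of those without 6-BA. By DESeq2 this gene passed for NAA plus 6-BA against NAA (0.41, adjusted p = 0.0276) and in the additive fit (0.29, adjusted p = 0.0346). LOC110101094, LOC114578333, LOC110110104 and LOC110110105 ranged from 27.8 to 32.7, 6.18 to 9.14, 27.8 to 38.0 and 3.79 to 6.10 FPKM over the 8 libraries.

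In the strictosidine synthase-like class, LOC110106759 (strictosidine synthase-like 3, scaffold NW_021318735.1, bases 1819103 to 1835090, plus strand) rose. It had 130.2 and 122.9 FPKM with NAA plus 6-BA and 117.0 and 118.1 FPKM with 6-BA, against 77.97 and 87.2 FPKM with NAA and 91.6 and 83.1 FPKM with water. The lowest library with 6-BA was above the highest without it in FPKM. The raw counts were 10654 to 16526 with 6-BA and 4945 to 6149 without it, not scaled for the larger totals of the libraries with 6-BA. The additive log2 fold change was 0.49 (SE 0.06, edgeR adjusted p = 0.00128), and for NAA plus 6-BA against NAA it was 0.57 (SE 0.09, adjusted p = 0.00558). Both calls held without any 1 library. The value for 6-BA against water was 0.41 (SE 0.09, adjusted p = 0.0228), a call that did not survive leaving out water replicate 2 or one of the 6-BA libraries (adjusted p up to 0.153). The 2 other strictosidine synthase-like 3 genes, LOC110116084 at 59.4 to 77.8 FPKM and LOC110104837 at 51.9 to 67.9 FPKM, passed no edgeR test.

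LOC110103582, a strictosidine synthase-like 7 gene, had 5.55 and 7.22 FPKM with NAA plus 6-BA, 6.32 and 4.05 FPKM with 6-BA, 4.33 and 4.86 FPKM with NAA and 2.53 and 1.89 FPKM with water. Here both water libraries were lowest and the NAA libraries lay among those with 6-BA. It rose against water with 6-BA (log2 fold change 1.21, SE 0.27, edgeR adjusted p = 0.0272) and with NAA plus 6-BA (1.51, SE 0.27, adjusted p = 0.00989), and in the additive fit by 0.80 (SE 0.22, adjusted p = 0.041). The change with NAA alone was 1.08 (SE 0.28), with an adjusted p of 0.0991 by edgeR and 0.0117 by DESeq2. The calls for 6-BA were lost without either water library or 6-BA replicate 1 (adjusted p up to 0.178), the one for NAA plus 6-BA without water replicate 2 or NAA plus 6-BA replicate 2 (up to 0.0849), and the additive one in 6 of 8 such fits, all but those without NAA replicate 2 or NAA plus 6-BA replicate 1 (up to 0.107).

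The remaining strictosidine synthase-like genes passed no edgeR test. LOC114578609, of the strictosidine synthase-like 5 type, was at 4.69 and 4.04 FPKM with NAA plus 6-BA and at 5.75 and 3.67 FPKM with 6-BA, against 3.98 and 2.90 FPKM with NAA and 2.17 and 2.14 FPKM with water (6-BA against water 1.11, SE 0.33, edgeR adjusted p = 0.0785). Limma on log2(FPKM + 0.1) called it against water with 6-BA (1.06, adjusted p = 0.0367) and with NAA plus 6-BA (0.98, adjusted p = 0.0487). LOC110108317 differed between replicates, with 4.04 and 11.2 FPKM with NAA plus 6-BA, 3.03 and 2.23 FPKM with 6-BA, 3.76 and 12.0 FPKM with NAA and 2.196 and 3.26 FPKM with water. LOC110098090, a relative of an Arabidopsis gene needed for the pollen wall, stayed between 0.184 and 0.709 FPKM. LOC110100401, a strictosidine synthase-like 5 gene, had 26.7 and 24.7 FPKM with NAA plus 6-BA and 25.4 and 25.8 FPKM with 6-BA, against 28.4 and 30.1 FPKM with NAA and 26.8 and 28.6 FPKM with water, and DESeq2 called it in the additive fit (-0.18, adjusted p = 0.048). LOC110110422, LOC110094069 and LOC110101620 ranged from 87.2 to 113.8, 14.6 to 23.2 and 6.16 to 8.84 FPKM.

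Of the 7 tropinone reductases, all with a short chain dehydrogenase domain, 2 fell in the additive fit and none passed by edgeR in a contrast of 2 against 2 libraries. LOC110111062 had 112.1 and 122.1 FPKM with NAA plus 6-BA and 115.3 and 107.3 FPKM with 6-BA, against 132.1 and 126.9 FPKM with NAA and 132.6 and 127.1 FPKM with water. The groups did not overlap, but the change was small (log2 fold change -0.22, SE 0.06, edgeR adjusted p = 0.0333), and it missed the threshold with library totals as scaling, in both limma fits and in every fit without 1 library except that without NAA plus 6-BA replicate 2 (adjusted p up to 0.112). LOC110114206 had 15.3 and 20.3 FPKM with NAA plus 6-BA and 16.2 and 14.2 FPKM with 6-BA, against 21.5 and 23.9 FPKM with NAA and 20.5 and 18.5 FPKM with water. One library with 6-BA lay among those without it, and the change of -0.39 (SE 0.10, adjusted p = 0.0344) was lost in 6 of the 8 such fits, all but those without NAA replicate 1 or NAA plus 6-BA replicate 2 (adjusted p up to 0.0966). LOC110104710, LOC110116642, LOC110101810, LOC110105464 and LOC110104391 ranged from 45.9 to 59.8, 28.0 to 52.2, 22.3 to 48.6, 18.2 to 55.8 and 7.97 to 12.4 FPKM.

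NAA alone changed none of the 42 genes against water by edgeR, where 1.41% of all genes rose and 0.824% fell (2.23%). At an unadjusted p under 0.05 there were 6 of 42, against 11.9% of all genes. DESeq2 called 2 of 42 (4.04% of all genes), LOC110103582 as given above and the tropinone reductase LOC110105464, with a log2 fold change of -0.85 (adjusted p = 0.0041), and limma on either FPKM scale called 0 (2.0% and 1.94% of all genes). LOC110105464 had 20.1 and 18.2 FPKM with NAA, against 26.4 and 44.1 FPKM with water. The interaction of NAA and 6-BA also gave 0 of 42 by edgeR (0.52% of all genes), with 4 at an unadjusted p under 0.05 (8.14% of all genes), and 0 by DESeq2 (1.97%) and limma (0.229% and 0.239%). Without NAA replicate 2, the reticuline oxidase-like gene LOC110094434 passed with -1.59 (adjusted p = 0.0362). Its levels were 1.16 and 1.02 FPKM with NAA plus 6-BA, 1.87 and 1.89 FPKM with 6-BA, 2.80 and 1.42 FPKM with NAA and 1.72 and 1.56 FPKM with water.

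Replicates of some members differed more than the treatments. The adjacent berberine bridge enzyme-like 22 genes LOC110114661 and LOC110114662 had 4.01 and 10.04 FPKM in NAA plus 6-BA replicate 1 and 0.868 and 1.97 FPKM in replicate 2. In the 6-BA libraries they had 3.25 and 7.72 FPKM in replicate 1 and 7.69 and 16.2 FPKM in replicate 2. With NAA they had 2.27 and 9.88 FPKM in replicate 1 and 0.452 and 1.04 FPKM in replicate 2, and with water 3.71 and 4.92 FPKM in replicate 1 and 1.78 and 4.99 FPKM in replicate 2. The Arabidopsis protein of that name oxidises fragments of cellulose. The third gene of this array, LOC110114657, stayed between 8.82 and 11.7 FPKM, and so did not share these swings. LOC110093998, LOC110116182 and LOC110116179, the other tested berberine bridge enzymes, ranged from 14.8 to 19.9, 3.63 to 6.94 and 0.831 to 1.61 FPKM.

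Genes that supply the substrates of these enzymes were counted from lists drawn by words in the descriptions. For aromatic amino acids and amines, 2 of 21 tested genes rose and 3 fell with 6-BA in the additive fit, against 5.92% and 7.46% of all genes. Arogenate dehydrogenase 2 (LOC110110004), which makes tyrosine, had 9.01 and 9.20 FPKM with NAA plus 6-BA and 9.16 and 8.72 FPKM with 6-BA, against 11.4 and 12.1 FPKM with NAA and 11.7 and 12.8 FPKM with water. The groups did not overlap, and the log2 fold change was -0.44 (SE 0.07, edgeR adjusted p = 0.00331). An arogenate dehydratase gene (LOC110092730) fell by 0.23 (adjusted p = 0.0177), and the anthranilate synthase alpha subunit (LOC110104411), on the way to tryptophan, rose by 0.32 (adjusted p = 0.0233). For methyl donor supply, 1 of 7 rose. This was S-adenosylmethionine synthase 5 (LOC110115448), with 233.4 and 236.7 FPKM with NAA plus 6-BA and 224.1 and 284.7 FPKM with 6-BA, against 178.2 and 195.7 FPKM with NAA and 173.2 and 180.4 FPKM with water (0.39, SE 0.09, adjusted p = 0.0161).

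Among genes of polyamines, from which the tropane ring is built, 2 of 29 rose and 7 fell, against 5.92% and 7.46% of all genes. Primary amine oxidase (LOC110097083) had 60.8 and 57.6 FPKM with NAA plus 6-BA and 53.5 and 55.2 FPKM with 6-BA, against 89.1 and 81.8 FPKM with NAA and 87.7 and 98.1 FPKM with water. Its log2 fold change was -0.68 (SE 0.07, edgeR adjusted p = 0.000227). Spermidine synthase 2 (LOC110096815) fell by 0.47 (adjusted p = 0.00184) and S-adenosylmethionine decarboxylase (LOC110098583) by 0.49 (adjusted p = 0.00352). These 3 fell together, while the list's median was -0.09, against 0.00 over all genes.

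Of 22 iridoid and monoterpene genes, 1 rose and 5 fell, against 5.92% and 7.46% of all genes. The 3 with the lowest p are described as like glucosyltransferases of the secologanin route: LOC110099251 (-1.47, edgeR adjusted p = 0.000835), LOC110102140 (-1.63, adjusted p = 0.00226) and LOC110105614 (-0.93, adjusted p = 0.00247). LOC110102140 had 5.31 and 5.85 FPKM with NAA plus 6-BA and 6.21 and 5.56 FPKM with 6-BA, against 29.8 and 22.6 FPKM with NAA and 11.2 and 11.5 FPKM with water. Both NAA libraries were the highest for this gene. Summed over the 26 genes of the list, levels were 456.0 and 416.2 CPM with NAA, against 289.0 and 290.5 CPM with water. With NAA alone 3 of 22 rose, against 1.41% of all genes. Of 26 terpenoid backbone and sesquiterpene genes 0 rose and 3 fell. Those 3 are neighbours taken in by the words, 2 adenylate isopentenyltransferases, which make cytokinin, and a farnesylcysteine lyase. The adenylate isopentenyltransferases LOC110111877 and LOC110116586 fell by 2.30 and 1.27 (adjusted p = 0.00365 and 0.0342). Among the 26 genes of this list, no gene of the sesquiterpene route itself passed in the additive fit. Genes of that route described in other words were not counted.

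Markers of other cell types and states were counted in the same additive fit, in which 5.92% of all genes rose and 7.46% fell. Of 21 dividing-cell markers 4 rose and 1 fell with 6-BA, and their sum was 682.6 to 710.0 CPM with 6-BA, against 629.3 to 678.3 CPM without it. Of 43 root markers 2 rose and 6 fell, with sums of 1270 to 1331 CPM against 1271 to 1337 CPM. Floral organ genes had 2 higher and 2 lower of 34, and sums of 238.7 to 275.4 CPM against 238.8 to 361.8 CPM. Of 36 heat shock genes 0 rose and 13 fell, with sums of 10130 to 11270 CPM with 6-BA, against 11530 to 12160 CPM without it. Green tissue markers had 1 of 19 higher, with sums of 31270 to 32530 CPM against 27300 to 33710 CPM. The part of these in the changes of the enzymes was not tested.

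The second experiment asked how the dose and duration of 6-BA changed these genes in older plantlets. No condition was replicated, and fitted over all 8 libraries as week plus 6-BA at any dose, 0 of 39 tested genes passed by edgeR, as did 0 of 21267 genes over all (0.0%). At an unadjusted p under 0.05 there was 1 of 39, LOC110110104, against 2.34% of all genes. DESeq2 called 0 of 39 (6 genes over all, 0.0282%) and limma 0 of 40 on either scale (0.00861% and 0.0% of all genes). The change between 4 and 2 weeks likewise gave 0 of 39 by edgeR (0.0% of all genes), with 2 at an unadjusted p under 0.05 (5.25% of all genes), and 0 by DESeq2 (0.386%) and limma (0.0% and 0.0%). The biological coefficient of variation was 0.499 here, which includes misfit of the model, against 0.115 in the first experiment, so these counts of 0 do not show that the genes were stable.

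The 4-week libraries of the second experiment did not order by dose. Across 19209 genes the 4-week libraries at 0 and 2.0 mg/L were most similar (r = 0.962), as were those at 0.5 and 1.0 mg/L (r = 0.954), and after 2 weeks 0 and 0.5 mg/L (r = 0.966) and 1.0 and 2.0 mg/L (r = 0.954) paired off, in the order of dose. No label gives a reason for the 4-week pairs, and the labels' doses were used as given, so each 4-week value by dose rests on them. The 21 dividing-cell markers summed to 713.7, 911.1, 508.6 and 451.6 CPM in order of rising dose from 0 mg/L after 2 weeks, and to 1230, 462.3, 519.7 and 1228 CPM after 4 weeks. They were high in the same 4-week pair, that without 6-BA and that at 2.0 mg/L. These sums are set beside the genes below, and their part in the genes' values was not tested.

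**Figure D4:**
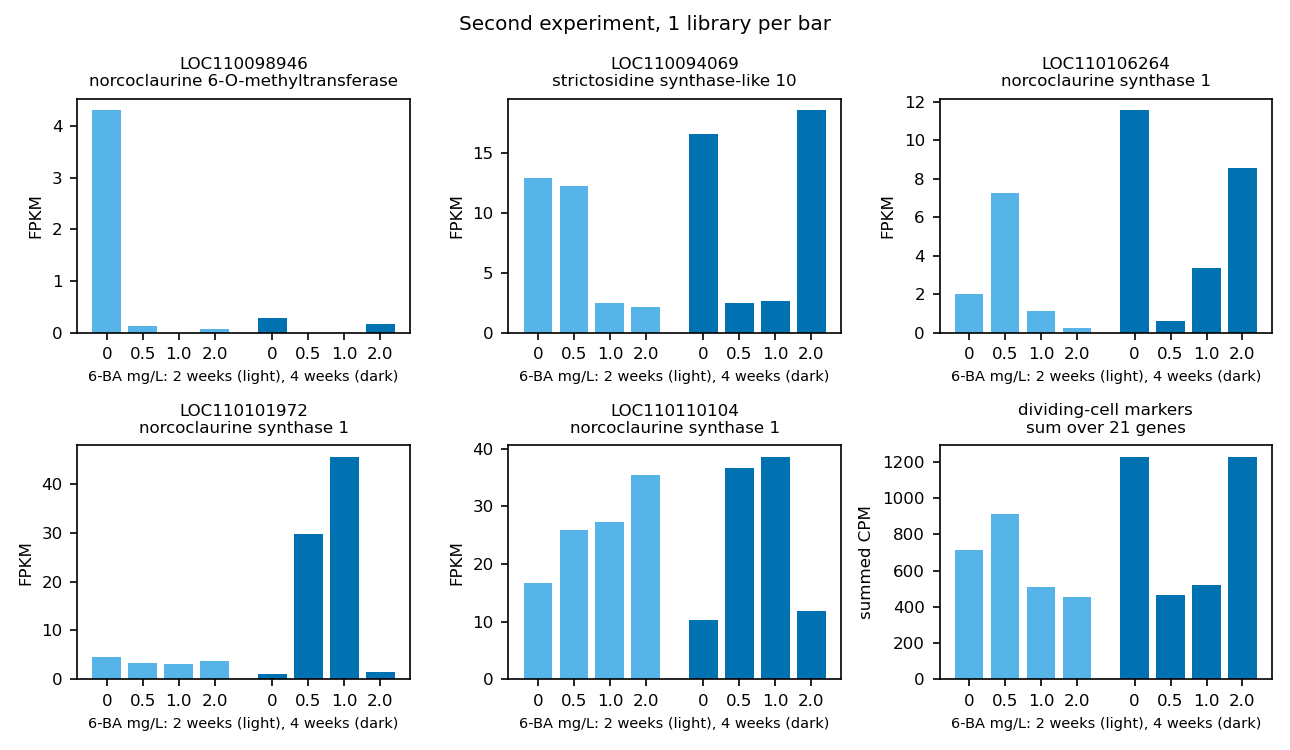
FPKM of 5 genes and summed CPM of 21 dividing-cell markers in the 8 single libraries of the second experiment, by 6-BA dose in mg/L after 2 weeks (light bars) and 4 weeks (dark bars). LOC110098946 is high only in the 2-week library without 6-BA, whereas LOC110094069 and LOC110106264 are high after 4 weeks at 0 and 2.0 mg/L, as are the markers.

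The 6-O-methyltransferase LOC110098946 had 4.31, 0.118, 0 and 0.0743 FPKM in order of rising dose from 0 mg/L after 2 weeks, and 0.292, 0, 0 and 0.174 FPKM after 4 weeks. The counts were 67, 2, 0 and 1 after 2 weeks and 5, 0, 0 and 3 after 4 weeks. A count of 0 allows up to 3 counts, or 0.194 CPM at 1.0 mg/L after 2 weeks. Of its 78 counts 67 came from the 2-week library without 6-BA, and after 4 weeks the gene was near the floor with and without 6-BA. Its 6 log2 ratios to 0 mg/L of the same week, with 1 CPM added to each level, were -2.23, -2.40 and -2.31 by rising dose after 2 weeks and -0.41, -0.41 and -0.16 after 4 weeks. It was the only one of 43 detected genes whose 6 ratios had one sign with a median of at least 1 in size (-1.32), against 1.04% of all 24790 detected genes. In a fit without the filter on low counts its log2 fold change was -4.46 (SE 1.25, edgeR adjusted p = 0.876). Without 6-BA, its level in the older plantlets, 4.31 and 0.292 FPKM after 2 and 4 weeks, stood below the 14.7 and 19.5 FPKM with water in the first experiment. Over all 8 libraries of each experiment, which hold different shares with 6-BA, it averaged 0.622 and 10.9 FPKM. The tables were normalised separately, and age, time on the medium and experiment cannot be told apart.

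Ratios of one sign at all 6 doses and times were found for 4 of 43 genes, against 10.4% of all genes, a share near the background. LOC110098946 was lower, and LOC110110104, LOC110110103 and LOC110101620 were higher. LOC110110104, an oxygenase-type norcoclaurine synthase, had 16.7, 25.9, 27.2 and 35.4 FPKM, again by rising dose from 0 mg/L, after 2 weeks and 10.2, 36.7, 38.7 and 11.9 FPKM after 4 weeks. The level after 4 weeks at 2.0 mg/L was close to that at 0 mg/L. Its log2 fold change at any dose was 1.15 (edgeR unadjusted p = 0.0385, adjusted p = 0.856). LOC110110103, which fell with 6-BA in the first experiment, had 6.03, 16.5, 9.79 and 7.86 FPKM after 2 weeks and 7.31, 9.38, 8.97 and 8.54 FPKM after 4 weeks.

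**Figure D5:**
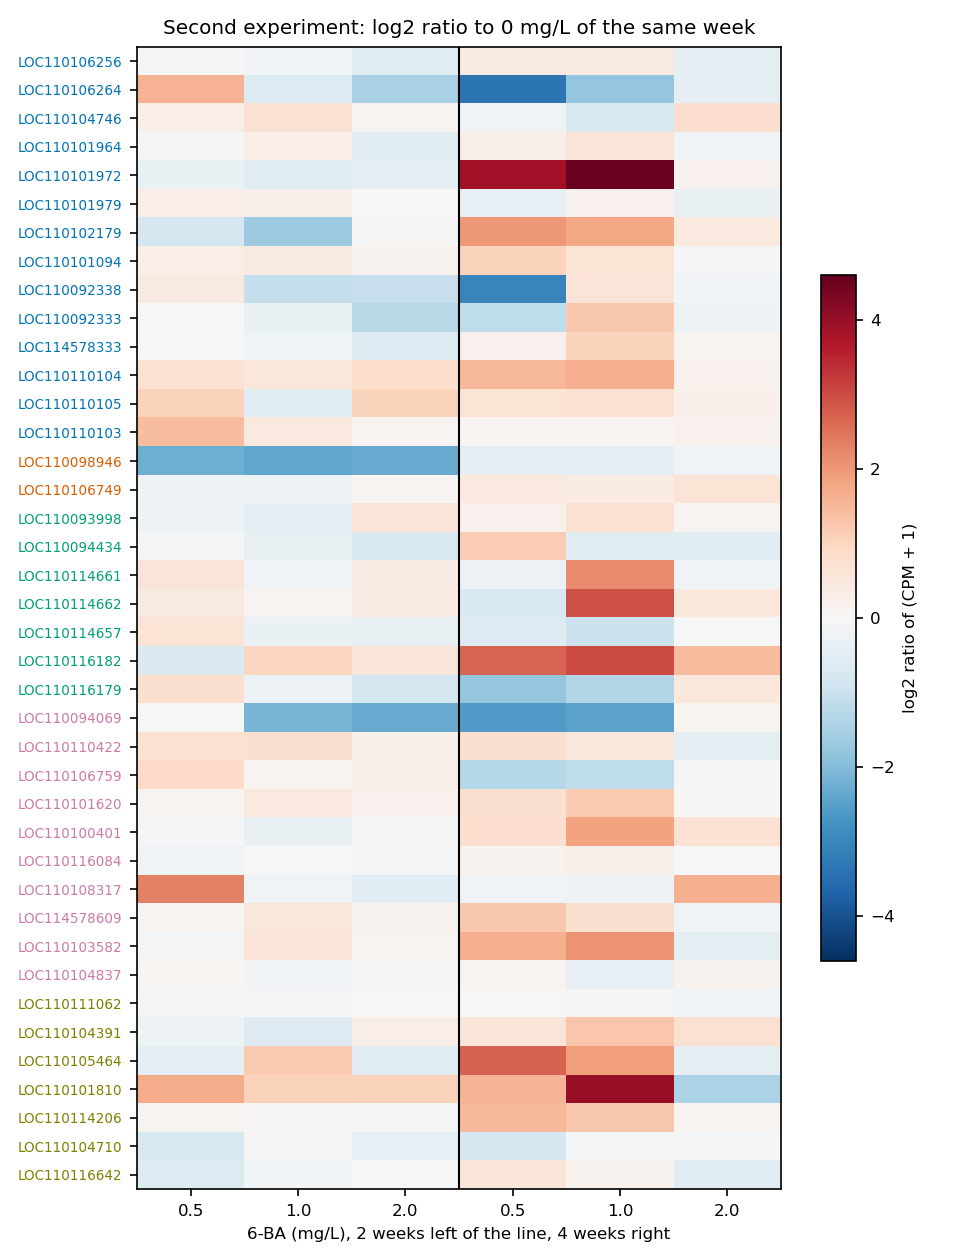
Log2 ratio of CPM + 1 to the 0 mg/L library of the same week for the 39 tested genes and LOC110098946, at the 3 doses after 2 weeks (left) and 4 weeks (right), with each gene label coloured by class. The strongest colours are at 0.5 and 1.0 mg/L after 4 weeks, and the column at 2.0 mg/L after 4 weeks is pale.

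Relative to the library without 6-BA of its week, the genes spread most after 4 weeks at the lower doses. These are log2 ratios of CPM + 1, in which the added 1 CPM shrinks the changes of low genes. Higher here means a ratio of 1 or more, and lower one of -1 or less. At 1.0 mg/L, 15 of 39 were higher and 5 lower, against 9.23% and 17.2% of all 21267 genes. At 0.5 mg/L there were 11 higher and 6 lower, against 8.61% and 19.6%. At 2.0 mg/L after 4 weeks there were 2 higher and 1 lower (2.67% and 2.72% of all genes). After 2 weeks the rising doses gave 5, 2 and 2 higher (3.37%, 1.9% and 1.15%) and 0, 3 and 4 lower (2.14%, 9.31% and 11.0%). These are single libraries, and the 3 ratios of a week share one library without 6-BA, so no test was made.

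In the fit at any dose, 32 of 39 genes had a positive log2 fold change and the median was 0.40, against 11114 of 21267 and 0.02 over all genes. Without the 4-week library at 0 mg/L the median was 0.14, with 26 of 40 genes positive. As a slope on dose it was 0.02, with 22 of 39 positive. Scaling by library totals moved the median of all genes to -0.12 and that of the enzymes to 0.25, with 26 of 39 positive.

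By single genes, LOC110101972 had 4.50, 3.29, 3.19 and 3.81 FPKM by rising dose from 0 mg/L after 2 weeks, and 1.09, 29.8, 45.7 and 1.38 FPKM after 4 weeks. LOC110101810, a tropinone reductase homolog, had 1.89, 8.15, 5.79 and 6.14 FPKM after 2 weeks and 5.27, 20.96, 113.5 and 1.32 FPKM after 4 weeks. Both stood highest in the 4-week libraries at 0.5 and 1.0 mg/L, where the dividing-cell sum was 462.3 and 519.7 CPM. In the 2-week libraries at 1.0 and 2.0 mg/L that sum was 508.6 and 451.6 CPM. There LOC110101972 had 3.19 and 3.81 FPKM and LOC110101810 had 5.79 and 6.14 FPKM. The part of dividing cells in these levels was not tested. LOC110116182 (berberine bridge enzyme-like 23) had 6.17, 3.52, 14.5 and 11.0 FPKM after 2 weeks and 1.11, 11.5, 13.9 and 3.91 FPKM after 4 weeks, and LOC110103582 had 2.58, 2.24, 4.99 and 3.45 FPKM after 2 weeks and 1.42, 7.80, 10.2 and 0.855 FPKM after 4 weeks. LOC110105464 (tropinone reductase-like) had 0.467, 0.0613, 2.76 and 0 FPKM after 2 weeks and 0.849, 13.0, 6.75 and 0.42 FPKM after 4 weeks. LOC110101810, LOC110116182 and LOC110105464 were chosen here after their values were seen.

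After 4 weeks the opposite order was seen for LOC110094069, a strictosidine synthase-like 10 gene. It had 12.9, 12.3, 2.47 and 2.14 FPKM by rising dose after 2 weeks, and 16.5, 2.45, 2.64 and 18.6 FPKM after 4 weeks. LOC110106264, which rose with 6-BA in the younger plantlets, had 1.99, 7.27, 1.14 and 0.23 FPKM after 2 weeks and 11.6, 0.613, 3.36 and 8.55 FPKM after 4 weeks. Both were highest in the 4-week libraries at 0 and 2.0 mg/L, which also had the highest dividing-cell sums. After 2 weeks LOC110094069 was low at 1.0 and 2.0 mg/L, while at 0 and 0.5 mg/L it was at 13.8 CPM in both libraries. LOC110106264 followed the order of dose in neither week. It had 1.99 FPKM at 0 mg/L after 2 weeks (dividing-cell sum 713.7 CPM) and 3.36 FPKM at 1.0 mg/L after 4 weeks (519.7 CPM). The part of dividing cells in the levels of these genes was not tested. LOC110106759, which also rose in the first experiment, had 31.9, 56.2, 39.5 and 44.5 FPKM after 2 weeks, with every 6-BA library above 0 mg/L, and 58.7, 28.3, 29.9 and 55.6 FPKM after 4 weeks, with every 6-BA library below it. The adjacent berberine bridge enzyme-like 22 genes LOC110114661 and LOC110114662 again moved as a pair, at 2.70 and 6.72 FPKM in the 4-week library at 1.0 mg/L, and at most 0.464 and 0.694 FPKM in the other 7 libraries. LOC110094069 and this pair were chosen after their values were seen.

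Some genes hardly varied. The tropinone reductase LOC110111062 stayed between 86.1 and 117.8 FPKM over the 8 libraries, and the strictosidine synthase-like 3 genes LOC110116084 and LOC110104837 between 60.4 and 90.3 and between 47.0 and 72.3 FPKM. The Bet v I norcoclaurine synthase LOC110104746 varied more, at 20.1, 23.8, 37.5 and 25.6 FPKM after 2 weeks and at 35.9, 38.6, 24.8 and 63.3 FPKM after 4 weeks. It averaged 33.7 FPKM over the 8 libraries, and LOC110111062, with 103.0 FPKM, was the highest of the enzymes in this experiment.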

How the data were processed

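Genes were counted in 16 libraries, grouped by the hormone, dose and time in the labels. Per the submitters' processing notes, the tools were edgeR with no version, Cufflinks 2.2.2 and HISAT2 2.0.6, and which one made which table is not said. The deposited tables hold raw counts per gene, and per the file headers the authors also gave FPKM, gene lengths, positions and descriptions. FPKM equal counts scaled by library totals in the first experiment, while the second used another effective size (ratios of 0.868 to 1.16). The sources used here do not give the genome build, annotation release or strandedness. Of the second table's features, 2352 carry no gene name (1.21% of counts) and are no members. All 44 members were found by gene number in a RefSeq gene table.

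Counts were tested in R 4.3.3 with edgeR 4.0.16 (filterByExpr, TMM, quasi-likelihood test, Benjamini-Hochberg adjustment over all genes at 0.05), with the 4 groups of the first experiment sharing one estimate of the spread. Alternatives were DESeq2 1.42.0, limma 3.58.1 on log2(FPKM + 1) and log2(FPKM + 0.1) with a mean FPKM of at least 0.1, other scalings, no filter, a replicate block, a dose slope and leaving out each library. A fit that leaves 1 library in a group assumes that it varies like the others. Tables and plots used Python 3.11.15, NumPy 2.4.6, pandas 2.3.3 and Matplotlib 3.10.9, and the fits were tested on simulated data. SEs are model-based, and floors cover counting error only.

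The members and lists were chosen with earlier results of these data known. Named with values were members past the threshold, the 2 highest of each class, members with 6 ratios of one sign and a median of at least 1 in size, and at most 3 genes of each precursor list. Word lists take in neighbours, such as scarecrow-like regulators among the root markers. A list of alkaloid-type cytochrome P450 genes matched 0 descriptions.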

Additional observations from a re-analysis of the deposited data

Results flagged for a closer look

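In the second experiment 4 members had log2 ratios of CPM + 1 of opposite sign at the 2 times. All 3 libraries with 6-BA lay on one side of 0 mg/L after 4 weeks and all 3 on the other after 2 weeks. The share of all genes that do so was not counted. Some ratios were small, such as -0.03 for LOC114578333 at 0.5 mg/L after 2 weeks and 0.08 at 2.0 mg/L after 4 weeks. The difference between the times was not tested, and each time rests on 1 library without 6-BA. The norcoclaurine synthase LOC110101972 had a mean log2 ratio of 2.87 after 4 weeks and -0.42 after 2 weeks, a difference of 3.29. The strictosidine synthase-like 5 gene LOC110100401 had 1.1 after 4 weeks and -0.18 after 2 weeks, a difference of 1.28. The norcoclaurine synthase LOC114578333 had 0.43 after 4 weeks and -0.28 after 2 weeks, a difference of 0.71. The strictosidine synthase-like 3 gene LOC110106759 went the other way, with -0.85 after 4 weeks and 0.41 after 2 weeks, a difference of -1.27. Dividing-cell markers summed to 1230 CPM in the 4-week library at 0 mg/L and to 713.7 CPM in the 2-week one, and their part in these differences was not tested.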

How the results depend on the processing

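Of the 27 calls of members in the first experiment, 8 held under every alternative, 19 under every one that left out no library, and 0 reversed. By DESeq2 there were 10 members called for NAA plus 6-BA against NAA, 8 for NAA plus 6-BA against water and 2 for NAA against water, where edgeR called 6, 5 and 0. With a library left out, the calls were 1 to 5 for 6-BA against water, 2 to 7 for NAA plus 6-BA against NAA, 1 to 8 for NAA plus 6-BA against water, 5 to 8 in the additive fit, 0 to 0 for NAA, 0 to 1 for the interaction and 0 to 0 for both results of the second experiment. The replicate block left 3 calls for NAA plus 6-BA against NAA and 7 in the additive fit. Under the block 7 calls missed the threshold, with adjusted p of 0.0518 to 0.077: LOC110092338, LOC110095719 and LOC110106264 for NAA plus 6-BA against NAA, and LOC110092333, LOC110103582, LOC110111062 and LOC110114206 in the additive fit. The labels do not say that the numbers pair libraries. Deviations of same-numbered libraries correlated at -0.303 to 0.338 over 17052 genes. With 2 libraries per group these correlations cannot decide whether same-numbered libraries were paired. The cause of these differences was not tested.

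Over all genes, DESeq2 called 1750 for NAA plus 6-BA against NAA (edgeR 1083), 784 for NAA (434), 383 for the interaction (101), 6 for any dose and 82 for week (0 and 0). The interaction had 154 without the low-count filter, 37 with the block and 45 and 47 with limma. Leaving out 1 library gave 494 to 1688 for 6-BA against water, 387 to 1174 for NAA plus 6-BA against NAA, 569 to 1651 for NAA plus 6-BA against water, 1526 to 2409 in the additive fit, 112 to 487 for NAA and 0 to 204 for the interaction. Scaling by library totals shifted the median of all genes between weeks to 0.18, against 0.05 with TMM. The second experiment has no replicates, so its spread came from the additive model, and 5 of the 44 genes had too few counts there to be tested.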
